A study of Mus musculus with 8 samples.

Results

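The nuclear genes of mitochondrial respiratory complexes I to IV were examined in the medial prefrontal cortex (mPFC) of mice that lack the orphan receptor GPR158 in forebrain excitatory neurons. Members were the protein-coding genes whose symbol begins with Nduf, Sdh, Uqcr or Cox, together with Cyc1 and Cycs, and 35 of the 91 such genes in the annotation had a row among the 2372 genes of the deposited table. The 8 adult male mice, all on a C57Bl/6J background and described as naive, carried 2 floxed copies of Gpr158. The 4 CaKO mice (CamK2A-Cre;Gpr158flox/flox) also carried Cre under the CamK2A promoter, and the 4 control littermates (Gpr158flox/flox) did not. The purpose stated for the series was to find what lies beneath a loss of glutamate vesicles in such animals. The tissue was taken whole, so its RNA came from neurons with and without Cre and from glia, and fewer cells of a type and less RNA per cell cannot be told apart in it.

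The respiratory chain moves electrons from NADH and succinate to oxygen and pumps protons across the inner mitochondrial membrane, and the ATP synthase uses the proton gradient to make ATP. Complex I (NADH dehydrogenase) and complex II (succinate dehydrogenase) feed electrons to ubiquinone, complex III passes them to cytochrome c, and complex IV (cytochrome c oxidase) reduces oxygen. A few core subunits carry the redox centres, many supernumerary subunits surround and stabilise them, and assembly factors build the complexes without staying in them. Brain depends heavily on this pathway, since synaptic transmission and ion pumping use most of its ATP.

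Each library value is a normalised count, that is, the reads assigned to a gene divided by 1 factor per library, and 1 read was worth between 0.994 and 1.04 normalised counts. The libraries of the CaKO mice held 2832931 to 3183638 reads over the listed genes, of which 31460 to 33153 fell on the members. Fold changes and p-values between genotypes are the authors' own, and the values of the single control libraries were not analysed here. A gene is said to have risen or fallen where the authors' deposited table gives an adjusted p below 0.05, and a listed gene is one with an unadjusted p below 0.05. The log2 ratio is the deposited log2 fold change of CaKO over control. Gpr158 itself had 0 rows in the table, which lists only genes with an unadjusted p below 0.05, and 17 rows were unmatched. No matched row thus shows a lower Gpr158 transcript in CaKO, and the deletion was not checked on its transcript. Camk2a, the kinase gene whose promoter drives Cre, averaged 46288 ± 5735 normalised counts in CaKO (SD, n = 4).

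Complex I transcripts changed in both directions in CaKO mPFC, with 11 of 44 genes changed (25.0%). In complex III 1 of 9 genes changed (11.1%). In complex IV it was 1 of 29 (3.45%), a share near the 3.24% of all genes, and in complex II 0 of 8. In the authors' deposited table, 4 of the 91 genes rose (Ndufa13, Ndufb9, Ndufv1 and Ndufa8) and 9 fell (Ndufv3, Ndufa3, Ndufc2, Ndufs5, Ndufa11, Ndufb7, Ndufb10, Cox6b1 and Uqcrb). These are 4.4% and 9.89% of the members, where 1.27% and 1.97% of the 12938 genes in the adjustment rose and fell, and 3.24% changed in either direction. The changes were modest, with a median log2 ratio of 0.51 for the members that rose and -0.50 for those that fell, in the authors' deposited table. At an unadjusted p below 0.05 and with a place in the adjustment, the authors' deposited table listed 34 members (37.4%), of which 16 were higher and 18 lower, against 15.8% of all genes, 7.14% higher and 8.68% lower. The shares for the members take all annotated genes as tested. The median log2 fold change over the 35 listed members was -0.23, and over all listed genes it was also -0.23. Uqcrb lay just inside the threshold (adjusted p = 0.0406) and Ndufs7 just outside it (adjusted p = 0.0705) in the authors' deposited table.

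**Figure D1:**
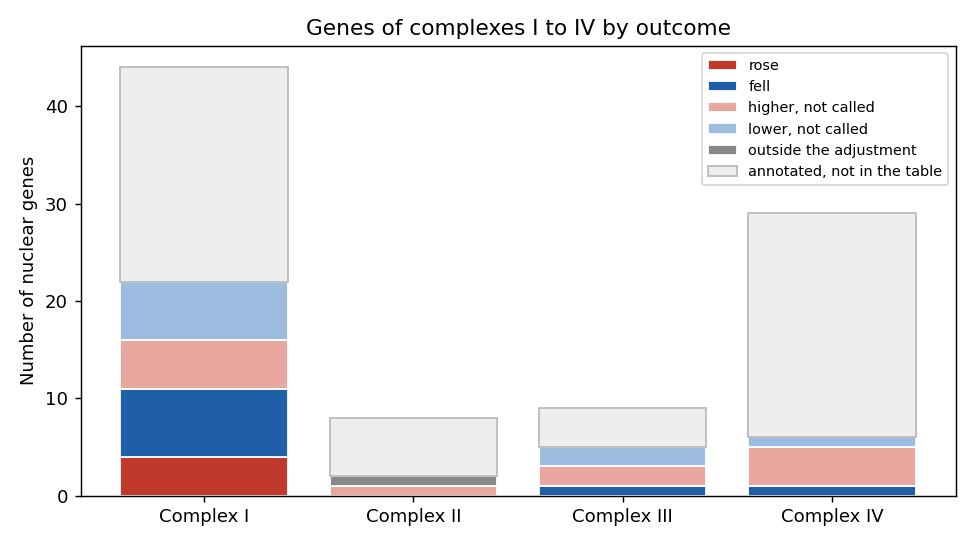
Number of nuclear genes (vertical axis) of each respiratory complex by their outcome in the authors' deposited table, stacked from genes that rose at the bottom to annotated genes with no row at the top. Complex I holds 11 of the 13 changed genes, and the carrier gene Cycs, which had no row, is not drawn.

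CaKO replicate 3 stood apart from the other CaKO libraries in the table as a whole, and the members shared this. Of the 255 genes of the whole table that fell, 69.0% had their lowest CaKO value in replicate 3, and so did 9 of the 9 members that fell. Among the 164 genes that rose, 50.0% had their highest value in replicate 3 and 52.4% their lowest in replicate 1. The members that rose were highest in replicate 3 in 3 of 4 cases and lowest in replicate 1 in 4 of 4. The listed genes of the mitochondrial genome made up 15.5% of the normalised counts over all listed genes in replicate 3. In replicates 1, 2 and 4 they made up 22.8%, 20.1% and 17.2%. Only genes with an unadjusted p below 0.05 enter these sums, so they are not the whole mitochondrial share of a library. The part of this in the members' differences was not tested. The CaKO libraries were left out one after another with an approximate method, which keeps the control level implied by the deposited fold change and widens the standard error implied by the p. Without replicate 3, 3 of the 4 increases and 2 of the 9 decreases kept their calls, where the lower precision of 3 libraries alone would have left 4 and 7. Over all genes 43.0% of the calls were kept without replicate 3, and 70.6% to 77.8% without another library. All 13 changed members had every CaKO library beyond the implied control level. The method holds that level fixed, so leaving 1 library out could not reverse their direction.

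**Figure D2:**
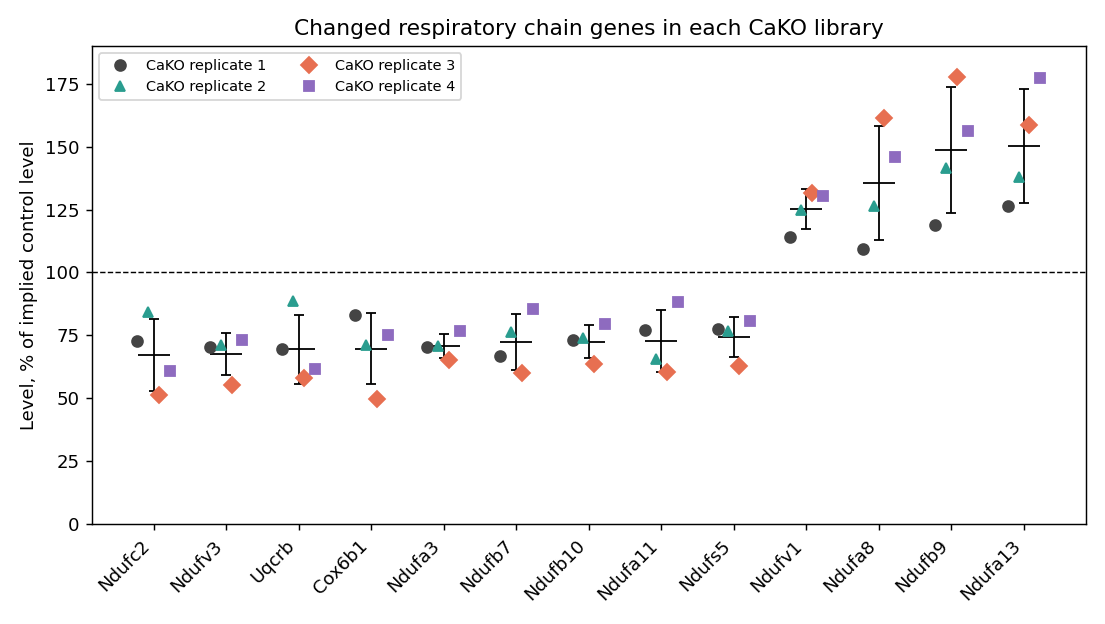
Level of the 13 changed genes in each CaKO library (points, 1 symbol per replicate) as a percent of the control level implied by the CaKO mean and the deposited fold change (dashed line at 100%), with the mean and SD of the 4 libraries as bars. Replicate 3 is the lowest library for each of the 9 genes that fell, and replicate 1 is the lowest for each of the 4 that rose.

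The 250 bases before the RefSeq start site are shown for Ndufa3, Ndufc2 and Ndufs5. These 3 genes, which fell, were taken as the changed members with a RefSeq window nearly free of annotated exons (at most 16 bases). Ndufaf1 and Cox16, which did not pass, are shown after them because each holds a match to the element of GABP, a factor known to act on respiratory genes. Of the listed members, Ndufb7 and Cox6b1 hold the same match, and they fell and have windows that overlap annotated exons by 87 and 37 bases. Ndufb6 and Uqcr11 hold it too, with an overlap of 0 and 9 bases, and are not shown. Both were lower without passing, at log2 ratios of -0.28 and -0.35 by the authors' deposited table. Ndufaf1 and Cox16 are thus the listed holders that were higher, at 0.25 and 0.58, and stand for no common direction. The windows shown were chosen after the values were seen, which departs from the plan to show the members with the smallest p. The windows, from RefSeq on build GRCm38.p6, lie at chr7:3617123-3617372 (plus strand), chr7:97399753-97400002 (plus strand), chr4:123718187-123718436 (minus strand), chr2:119662835-119663084 (minus strand) and chr12:81485138-81485387 (minus strand). Capitals mark a match to a motif named in the next paragraph, and the last base stands next to the start site.
Ndufa3: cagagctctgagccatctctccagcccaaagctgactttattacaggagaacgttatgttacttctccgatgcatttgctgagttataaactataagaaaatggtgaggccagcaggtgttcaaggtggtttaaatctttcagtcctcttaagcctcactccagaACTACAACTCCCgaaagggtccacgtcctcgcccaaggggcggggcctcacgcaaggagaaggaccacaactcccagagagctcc
Ndufc2: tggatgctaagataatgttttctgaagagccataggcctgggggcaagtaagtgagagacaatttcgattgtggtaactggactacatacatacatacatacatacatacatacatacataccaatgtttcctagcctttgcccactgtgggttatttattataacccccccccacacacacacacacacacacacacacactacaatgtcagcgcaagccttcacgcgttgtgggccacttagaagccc
Ndufs5: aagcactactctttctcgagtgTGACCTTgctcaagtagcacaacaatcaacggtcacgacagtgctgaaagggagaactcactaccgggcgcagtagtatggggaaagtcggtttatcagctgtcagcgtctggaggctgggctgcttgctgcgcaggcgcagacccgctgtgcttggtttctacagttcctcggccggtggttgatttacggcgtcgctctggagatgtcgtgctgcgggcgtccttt
Ndufaf1: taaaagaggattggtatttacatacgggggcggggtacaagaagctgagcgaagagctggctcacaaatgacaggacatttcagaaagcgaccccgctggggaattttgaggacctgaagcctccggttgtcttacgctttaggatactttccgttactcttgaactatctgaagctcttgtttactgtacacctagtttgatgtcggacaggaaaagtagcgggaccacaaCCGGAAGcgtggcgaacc
Cox16: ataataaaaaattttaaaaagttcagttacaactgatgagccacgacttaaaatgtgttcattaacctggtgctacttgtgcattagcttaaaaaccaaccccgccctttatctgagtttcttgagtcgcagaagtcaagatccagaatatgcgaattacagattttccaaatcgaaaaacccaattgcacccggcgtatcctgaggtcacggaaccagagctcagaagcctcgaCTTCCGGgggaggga

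Of the 35 listed members, 31 had such a window, and both strands of it were searched for the palindromic core of the NRF1 element, for the GABP element CCGGAAG, the YY1 element ATGGCGGC and the ERR element AAGGTCA. None of these overlapped another within a member's window. The GABP letters were found in 6 of the 31 windows (19.4%), those of Ndufb7, Cox6b1, Cox16, Ndufaf1, Ndufb6 and Uqcr11, and in 7.11% of the 27025 promoters of all genes. Over all annotated members with a window, listed or not, the share was 15 of 73 (20.5%). The matches in Ndufaf1 and Cox16 begin 18 and 15 bases before the RefSeq start site, and those in Cox6b1 and Ndufb7, which fell, 28 and 20. In the GENCODE annotation the Cox6b1 and Ndufb7 matches lie inside the gene itself, within the 37 and 87 bases of window that overlap exons. The NRF1 core was found in 1 of the 31 windows, Ndufa11, 60 bases before its start site, and in 0.777% of all promoters. The ERR letters occurred in 2 (Ndufs5 and Ndufb2, 6.45%, against 4.01% of all promoters) and the YY1 letters in 0, against 1.03%. The element of ZNF143, a factor of housekeeping promoters, was added after the windows were read, so its share among them is a description only. It was found in Ndufa3, which fell, in Ndufv1, which rose, and in Cox7c. These are 9.68% of the 31 windows, against 5 of 73 annotated members (6.85%) and 1.81% of all promoters. The Ndufa3 match begins 85 bases before the start site.

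The flavoprotein tip of complex I, where NADH is oxidised, had a core subunit that rose and an accessory subunit that fell. Ndufv1, which binds NADH and the flavin (chromosome 19: 4007497 to 4012806), stood at 1666, 1828, 1922 and 1905 normalised counts in CaKO replicates 1 to 4, so replicate 1 lay below the other 3. It rose to 125% of control by the authors' deposited table (log2 ratio 0.32 with adjusted p = 0.0112). Ndufv3, a small flavoprotein subunit (chromosome 17: 31520115 to 31531326), had 288, 292, 227 and 300 normalised counts. Replicate 3 was the low library and the other 3 lay close together. Ndufv3 fell to 67.5% of control by the authors' deposited table (log2 ratio -0.57 with adjusted p = 0.00241), and without replicate 3 its log2 fold change of -0.48 still passed. Ndufv2, the iron-sulphur partner of Ndufv1, averaged 1390 ± 148 normalised counts (SD, n = 4) and had a log2 ratio of -0.23 by the authors' deposited table (adjusted p = 0.191). Ndufs7, a core subunit that carries the last iron-sulphur cluster before ubiquinone, averaged 1291 ± 159 (SD, n = 4), with a log2 ratio of 0.34 by the authors' deposited table (adjusted p = 0.0705). Without CaKO replicate 1, which was its lowest library, Ndufs7 would have passed the threshold at 0.40.

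At the heel of the membrane arm, the 3 nuclear subunits placed around the mitochondrially encoded ND1 all changed, 2 upward and 1 downward. Over all genes 3.24% changed. The complex I modules hold few genes each and were grouped after the values were seen, so their counts are descriptions only. Ndufa13, also known as GRIM-19 (chromosome 8: 69894180 to 69902558), stood at 767, 836, 962 and 1075 normalised counts in replicates 1 to 4. Its libraries thus spread over a range wider than that of Ndufv1, with replicates 3 and 4 the highest. Ndufa13 rose to 150% of control by the authors' deposited table (log2 ratio 0.59 with adjusted p = 0.00117), the smallest p among the members, and Tssk6 covers 30.0% of its exon sequence on the opposite strand. Ndufa8 (chromosome 2: 36036326 to 36049406), a twin-cysteine subunit on the intermembrane-space side, had 768, 889, 1133 and 1024 normalised counts. Replicates 3 and 4 were again the highest. It rose to 136% of control by the authors' deposited table (log2 ratio 0.44 with adjusted p = 0.0292), and its call ended without replicate 3 (0.35) or replicate 4 (0.40). Ndufa3 (chromosome 7: 3617373 to 3620327), a single-pass membrane subunit, had 243, 245, 226 and 266 normalised counts and was the steadiest of the changed decreases, with an SD of 16.4 around a mean of 245. It fell to 70.8% of control by the authors' deposited table (log2 ratio -0.50 with adjusted p = 0.00362), and the call held with each CaKO library left out.

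In the proximal pump module, built around ND2 and likewise grouped after the values were seen, 3 of 5 nuclear subunits fell and none rose. Over all genes 1.97% fell and 1.27% rose. Ndufc2 (chromosome 7: 97400003 to 97407802) had 438, 506, 308 and 366 normalised counts in replicates 1 to 4, so replicates 3 and 4 lay below replicates 1 and 2. It fell to 67.3% of control by the authors' deposited table (log2 ratio -0.57 with adjusted p = 0.0111). Ndufs5 (chromosome 4: 123712710 to 123718202), which faces the intermembrane space, had 512, 504, 413 and 530 normalised counts. Replicate 3 was the low library. It fell to 74.4% of control by the authors' deposited table (log2 ratio -0.43 with adjusted p = 0.0161), and BC002163 is a near-identical copy that could share its reads. Ndufa11 (chromosome 17: 56717767 to 56722141), a membrane subunit at the contact with complex III in supercomplexes, had 523, 445, 412 and 598 normalised counts. Its lowest libraries were replicates 2 and 3. It fell to 72.8% of control by the authors' deposited table (log2 ratio -0.46 with adjusted p = 0.0232). Without replicate 3 all 3 calls ended, at log2 fold changes of -0.46 for Ndufc2, -0.35 for Ndufs5 and -0.38 for Ndufa11, and that of Ndufa11 also ended without replicate 2 (-0.41). The other two subunits did not pass in the authors' deposited table: Ndufa10 had a log2 fold change of -0.20 (adjusted p = 0.256) and Ndufc1 one of 0.34 (adjusted p = 0.126).

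The distal membrane arm, around ND4 and ND5, also held subunits that moved apart. Ndufb9 (chromosome 15: 58933756 to 58939488), a subunit of the LYR-motif family on the matrix side, stood at 605, 720, 907 and 797 normalised counts in replicates 1 to 4. Replicate 3 was the highest library and replicate 1 the lowest. It rose to 149% of control by the authors' deposited table (log2 ratio 0.57 with adjusted p = 0.00197) and kept its call with each library left out. The readthrough gene Gm49356 covers 19.5% of the same exons in the same orientation and is a near-identical copy over part of it. Ndufb7 (chromosome 8: 83566671 to 83571626), a twin-cysteine subunit of the same ND5 module, had 355, 405, 318 and 453 normalised counts, with replicate 3 lowest and replicate 4 highest. It fell to 72.3% of control by the authors' deposited table (log2 ratio -0.47 with adjusted p = 0.0235), and the call ended without replicate 1 (-0.43) or replicate 3 (-0.39). Ndufb10 (chromosome 17: 24722060 to 24724478), a twin-cysteine subunit of the ND4 module, had 572, 578, 496 and 622 normalised counts. Replicate 3 was the lowest library. It fell to 72.6% of control by the authors' deposited table (log2 ratio -0.46 with adjusted p = 0.0357), a call that ended without replicate 1 (-0.47), 2 (-0.47) or 3 (-0.40).

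The other subunits of this arm that were listed did not pass. Ndufb2 and Ndufb3 of the ND5 module had log2 ratios of 0.39 and 0.36 by the authors' deposited table, with adjusted p = 0.0774 and 0.12, and Ndufb8 of the same module one of -0.42 (adjusted p = 0.171). Ndufb11 and Ndufb6 of the ND4 module stood at -0.37 and -0.28 by the authors' deposited table, with adjusted p = 0.128 and 0.269. All 5 genes grouped with the ND5 module were thus listed, 3 higher and 2 lower. So were 3 of the 5 of the ND4 module, all lower, where 15.8% of all genes were listed. Of the 8 assembly factors of complex I, 2 were listed and did not pass. Ndufaf1, which acts on early membrane-arm intermediates, averaged 334 ± 27.5 normalised counts (SD, n = 4) with a log2 ratio of 0.25 by the authors' deposited table (adjusted p = 0.251). Ndufaf2, which sits on a late intermediate, averaged 118 ± 15.8 (SD, n = 4) with -0.40 by the authors' deposited table (adjusted p = 0.233), and B230220B15Rik covers 65.6% of its exon sequence on the opposite strand. In all, 11 of 44 complex I genes changed (25.0%), 7 of the 29 supernumerary subunits fell and 3 rose, and 1 of the 7 core subunits rose.

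**Figure D3:**
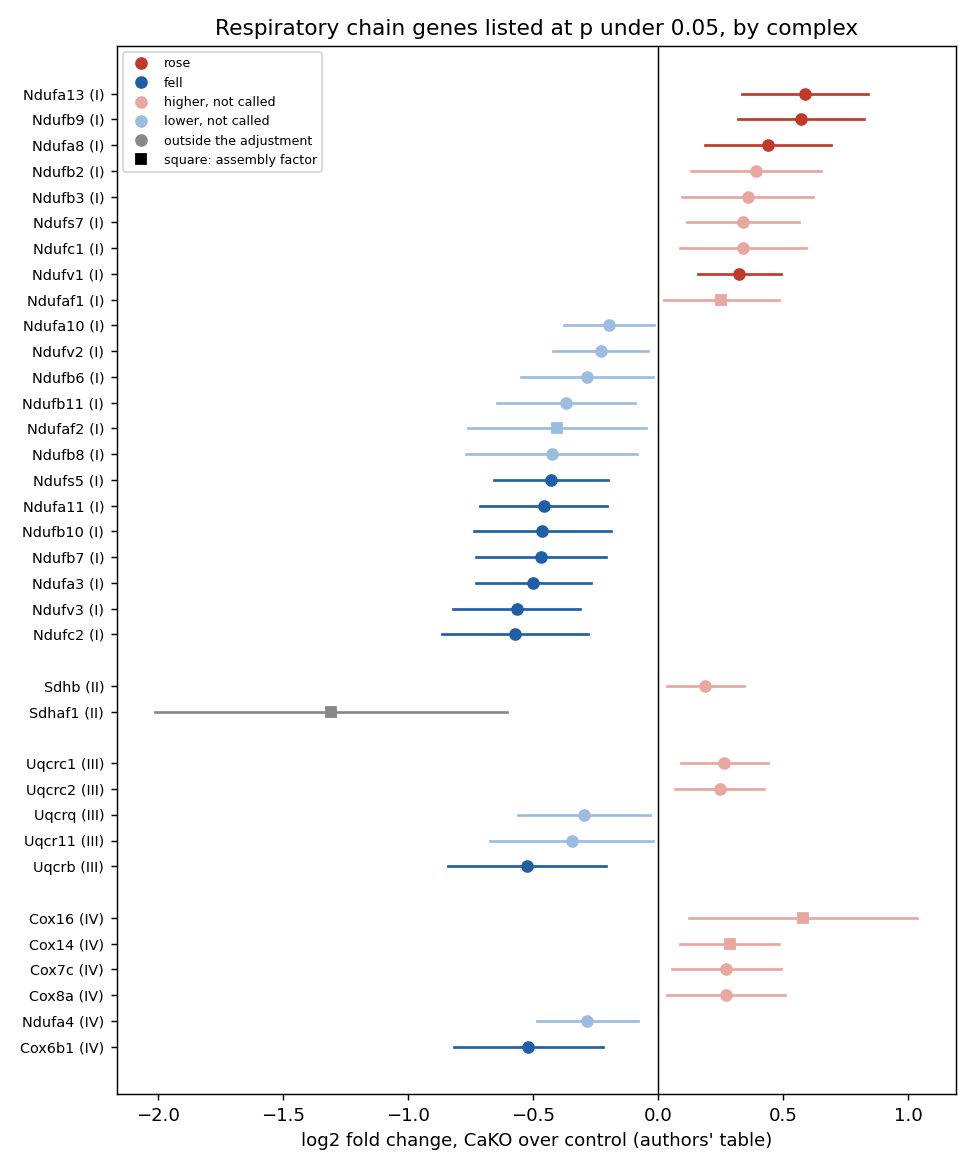
Log2 fold change of CaKO over control in the authors' deposited table (horizontal axis) for the 35 listed members, grouped by complex, with the 95% interval implied by the deposited p (lines). Circles are subunits and squares are assembly factors. Genes of each of the complexes I to IV lie on both sides of 0, and none of the intervals crosses 0 because the table lists only genes with a p below 0.05.

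Complex II, which links the citric acid cycle to the chain, had no change that passed. Its iron-sulphur subunit Sdhb averaged 1898 ± 86.2 normalised counts (SD, n = 4), with the smallest SD relative to the mean among the listed members, and stood at a log2 ratio of 0.19 by the authors' deposited table (adjusted p = 0.181). The assembly factor Sdhaf1, which helps to insert the iron-sulphur clusters into Sdhb, had the largest fold difference of the members. It was sparse, with 32.2, 22, 13.9 and 15.6 normalised counts in replicates 1 to 4, and replicate 1 was the highest. Its log2 ratio was -1.31 by the authors' deposited table (p = 0.000264), but its adjusted p is listed as 1, the value given to genes left out of the adjustment, so it was not counted as changed. The gene E130208F15Rik covers 69.6% of its exon sequence on the opposite strand. The flavoprotein subunit Sdha and the membrane anchors Sdhc and Sdhd had no row.

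In complex III only Uqcrb passed. The 3 listed small subunits were lower and the 2 large core proteins higher, and the small subunits Uqcr10 and Uqcrh had no row. Uqcrb (chromosome 13: 66900617 to 66905378), a small subunit beside the ubiquinone-binding site of cytochrome b, had 287, 367, 240 and 254 normalised counts in replicates 1 to 4. Replicate 2 was the highest and replicates 3 and 4 were the lowest. It fell to 69.5% of control by the authors' deposited table (log2 ratio -0.52 with adjusted p = 0.0406). Its call ended without replicate 1 (-0.53), 3 (-0.45) or 4 (-0.47), and Gm2962 is a near-identical copy. The small subunits Uqcrq and Uqcr11 had log2 ratios of -0.30 and -0.35 by the authors' deposited table, with adjusted p = 0.243 and 0.275. Uqcrc1 and Uqcrc2, the large core proteins on the matrix side that lack redox centres, averaged 3517 ± 303 and 2587 ± 239 normalised counts (SD, n = 4). They stood at 0.26 and 0.25 by the authors' deposited table, with adjusted p = 0.0718 and 0.116, and Uqcrc1 would have passed without CaKO replicate 1 (0.30). Cyc1 and Uqcrfs1, which carry the haem and the Rieske iron-sulphur cluster, had no row, nor did Cycs, the gene of cytochrome c itself.

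Complex IV had 6 of its 29 nuclear genes in the table and 1 that changed (3.45%), a share near the 3.24% of all genes. Cox6b1 (chromosome 7: 30616861 to 30626151), a subunit on the intermembrane-space face that joins the monomers of the enzyme, had 1245, 1066, 748 and 1124 normalised counts in replicates 1 to 4. Replicate 3 lay well below the other 3. Cox6b1 fell to 69.8% of control by the authors' deposited table (log2 ratio -0.52 with adjusted p = 0.0292), and without replicate 3 its log2 fold change of -0.39 no longer passed. Ndufa4, named for complex I but a subunit of complex IV, averaged 1839 ± 143 (SD, n = 4), with a log2 ratio of -0.28 by the authors' deposited table (adjusted p = 0.106). Cox7c and Cox8a, small membrane subunits, had log2 ratios of 0.27 and 0.27 by the authors' deposited table, with adjusted p = 0.171 and 0.222. Cox8a had 3315, 3399, 2530 and 3845 normalised counts, and replicate 3 lay below the implied control level of 2709. It was the only listed member with a CaKO library on the other side of that level. The assembly factors Cox14 and Cox16, which act in the maturation of the catalytic subunits, had 0.29 and 0.58 by the authors' deposited table, with adjusted p = 0.092 and 0.158. Cox16 is sparse, at 72.8 ± 12.3 normalised counts (SD, n = 4), and has 56.8% of its exons covered by Gm20498 in the same orientation. The other 23 genes, among them Cox4i1, Cox5a and Cox5b, had no row.

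Per kilobase of exon, the listed members spanned a wide range of levels in CaKO. Cox8a was the highest at 6004 normalised counts per kilobase, followed by Cox7c at 1581, Cox6b1 at 1477 and Ndufa4 at 1332. Among the changed complex I genes, Ndufa8 (1107), Ndufb9 (735), Ndufa13 (727) and Ndufv1 (726) stood above Ndufs5 (569), Ndufc2 (537), Ndufb10 (466), Ndufa11 (453), Ndufa3 (240), Ndufv3 (111) and Ndufb7 (84.6), all in normalised counts per kilobase. Ndufb9, Ndufa13 and Ndufv1 differed from one another by less than their SDs. These CaKO levels contain the change itself, and the order did not hold at the control level implied by the authors' deposited table. There Ndufc2 (797), Ndufs5 (765), Ndufb10 (642) and Ndufa11 (622), which fell, stood above Ndufv1 (580), Ndufb9 (494) and Ndufa13 (485), which rose, again in normalised counts per kilobase. The exon length counts all isoforms, which lowers the value of genes with a long rare isoform.

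The members have short transcripts for this table. Their median exon length was 1381 bp, against 3553 bp for all listed genes. Among members below 1000 bp in the adjustment, 7 were lower and 4 higher, with 4 that fell and 1 that rose, and among all listed genes of this length 78 were lower (59.1%) and 54 higher. Members of 1000 bp to 1500 bp were lower in 4 and higher in 4 cases, where 55.0% of all listed genes of that length were lower. For 1500 bp to 3000 bp the counts were 4 lower and 5 higher, against 58.4% lower. For 3000 bp or more they were 3 and 3, against 53.1% lower. The median GC content was 51.3% for the members that fell and 56.0% for those that rose, against 52.5% and 51% for all genes that fell and rose. The part of length and GC content in these differences was not tested.

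Some members share a promoter region with a neighbour. A protein-coding gene that starts within 1000 bp in the opposite direction was found for 7 of the 35 listed members and for 184 of 2046 listed protein-coding genes (8.99%). These neighbours were Tatdn1 for Ndufb9, Wdr4 for Ndufv3, Morn5 for Ndufa8, Phf14 for Ndufa4, Fam126b for Ndufb3, Ercc8 for Ndufaf2 and Gdf9 for Uqcrq. The start sites of Ndufb9 and Tatdn1 lie 18 bp apart. Only Fam126b was itself in the table, and it did not pass (log2 ratio 0.20 by the authors' deposited table, adjusted p = 0.307).

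Genes that work with the chain are set here against the 3.24% of all genes that changed. Of 35 further assembly factors, 2 rose and 2 fell (11.4% changed). Uqcc1, which helps to assemble cytochrome b, and Tmem126b, which builds the membrane arm of complex I, rose by 0.39 and 0.34 on the log2 scale by the authors' deposited table, with adjusted p = 0.00661 and 0.0472. Higd2a, which acts on complex IV and supercomplexes, and Bcs1l, which inserts the Rieske protein, fell by 0.57 and 0.49 on the log2 scale by the authors' deposited table, with adjusted p = 0.00428 and 0.0219. Among 17 genes of the ATP synthase, the enzyme that uses the gradient, 1 rose (Atp5g1) and 3 fell (Atp5f1, Atp5k and Atp5o), 23.5% in all. Among 17 genes of the citric acid cycle and pyruvate dehydrogenase, 1 rose: Idh3b, a subunit of the NAD-linked isocitrate dehydrogenase, had a log2 ratio of 0.43 by the authors' deposited table (adjusted p = 0.00354). This single gene of 17 (5.88%) is a share near that over all genes. None of 15 regulators of mitochondrial genes passed, and only Gabpa, the DNA-binding subunit of GABP, was listed, at -0.33 by the authors' deposited table (adjusted p = 0.107).

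Of the 13 protein genes of the mitochondrial genome, 4 were listed and none passed. The complex III gene mt-Cytb stood at a log2 ratio of -0.55 by the authors' deposited table (adjusted p = 0.0562), mt-Co1 of complex IV at -0.43 (adjusted p = 0.0887) and mt-Nd1 of complex I at -0.34 (adjusted p = 0.293). All 3 were lowest in CaKO replicate 3. The fourth gene, mt-Atp8, belongs to the ATP synthase and was left out of the adjustment. It lay on the other side, with a log2 ratio of 1.08 by the authors' deposited table (p = 0.00522). It was sparse, at 44.6 ± 8.59 normalised counts (SD, n = 4), and highest in CaKO replicate 3.

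Markers of several cell types moved beside these genes, and are set here against all genes, of which 1.97% fell and 15.8% were listed. Among 13 markers of mature oligodendrocytes 10 were listed (76.9%), all lower, and 4 fell (Mobp, Mbp, Cnp and Mag, 30.8%). Their summed level was 45904, 38278, 38452 and 37405 normalised counts in CaKO replicates 1 to 4. Of 12 astrocyte markers 4 were listed (33.3%), all lower, with sums from 10325 to 12908, and 2 fell (Atp1b2 and Aldoc, 16.7%). Of 10 markers of pyramidal neurons 4 were listed, all lower, and 1 fell (Nrgn), and their summed level was lowest in replicate 3, at 49161 normalised counts against 64379 to 67761 in the other 3. Of 5 red blood cell markers 3 were listed, all lower, with sums from 867 to 1405 and a fall of Hba-a1. Of 8 endothelial markers 2 were listed (25.0%), both lower, with a fall of Ly6c1 (12.5%). Of 12 interneuron markers 1 was listed (8.33%, below the 15.8% of all genes), lower and not passing (Kcnc1). Of 10 microglial markers 1 was listed (10.0%, also below that share), Trem2. It was the only listed marker on the higher side, at a log2 ratio of 0.32 by the authors' deposited table (adjusted p = 0.302). None of the listed markers was at 0 in any CaKO library. The part of cell makeup in the respiratory chain differences was not tested.

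**Figure D4:**
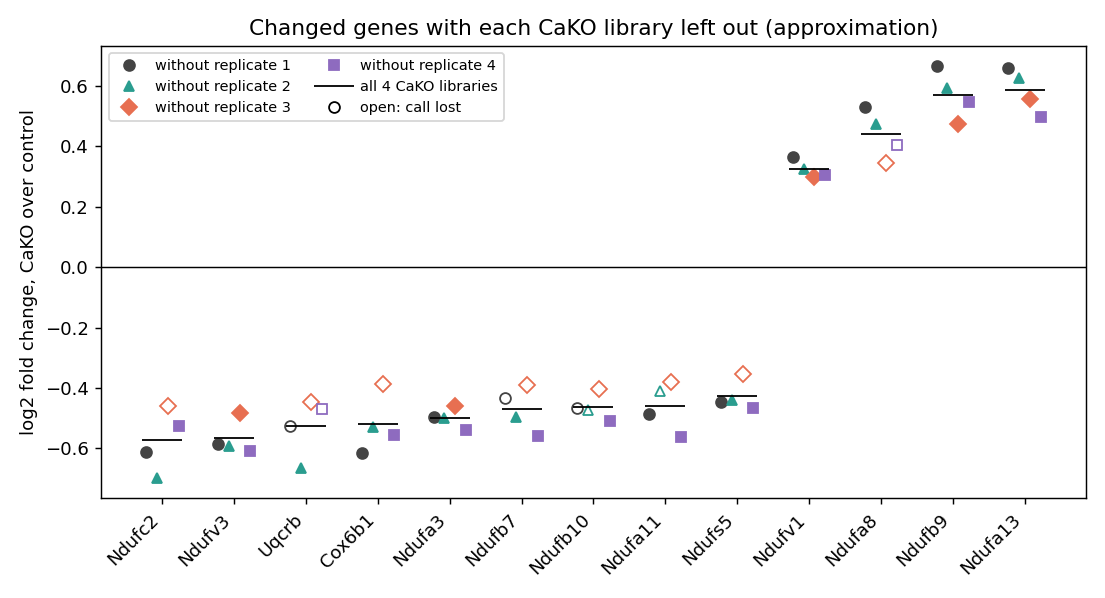
Log2 fold change of the 13 changed genes (vertical axis) with all 4 CaKO libraries (black line) and with each CaKO library left out (coloured symbols), by the approximate method described in the text; open symbols are lost calls. Without replicate 3 the 9 genes that fell move toward 0 and 7 of their calls are lost, and Ndufa13, Ndufb9, Ndufv1, Ndufv3 and Ndufa3 keep their calls throughout.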

How the data were processed

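RNA from whole mPFC of 4 CaKO and 4 control mice was poly-A selected and sequenced as 100 bp paired-end reads, per the labels' protocols. The submitters' processing notes name build GRCm38 and the tools TopHat2 2.0.12, HTSeq 0.6.1 and DESeq2 1.30.1. The strand setting of the counting is not given in the sources used here. CaKO values deposited by the authors are a signal, counts divided by a library factor: all were whole multiples of 1 step per library (tolerance 0.01). The log2 fold changes, p-values and adjusted p-values are the authors' deposited ones and come from their test across all genes. They point from control to CaKO, since the 18 genes at 0 in every CaKO library all have negative ones. Recomputing the adjustment by Benjamini and Hochberg with 12938 genes gave the deposited values to within a relative 0.00504. A further 325 genes with an adjusted p of 1 were treated as left out.

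The planned limma fit could not be run, since values of control libraries were not analysed here, and no count test was made. Rows were matched to GENCODE M21 by position: 2266 exactly and 89 by a mutual overlap of 80% or more, with 17 unmatched. Of the members 3 (Ndufv3, Ndufv1 and Cox8a) matched by overlap. Near-identical copies were found with BLAST 2.17.0 (98% identity over 200 bp and 50% of a transcript). Every listed member is named, and changed members get each CaKO value. Other lists are named where they passed. Members, lists and rules were chosen with earlier results of these data known, and complex I modules and the ZNF143 search were added after the values were seen. Alternatives were other thresholds, stricter matching, removal of copies, a filter at 100, subunits alone and rescaled libraries.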

Additional observations from a re-analysis of the deposited data

Results flagged for a closer look

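In 2 of the 35 listed members, 1 CaKO library lay far from the other 3 for a group of 4 (Dixon's test at the 95% level, which chance passes in about 1 of 20 groups). Ndufv3 had 227 normalised counts in replicate 3, below 288 to 300 in the others. Ndufb8 had 321 in replicate 4, above 270 to 272 in the others.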

How the results depend on the processing

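At an adjusted p below 0.1, 8 members rose and 9 fell, and below 0.01 the counts were 2 and 2. With each CaKO library left out in turn, 3 to 4 increases and 2 to 8 decreases were kept, and the lowest count of decreases, 2, came without replicate 3. The median log2 fold change of the listed members ranged from -0.29 to -0.17 over the same settings, and it was -0.46 over the 13 changed members alone, by construction of that set. Exact matches alone, the filter at 100, removal of copies and the restriction to subunits each left both counts within 1.5 times. For the members that rose, the last 2 were added after seeing the data and gave 3 and 4. Rescaling the CaKO libraries to equal totals kept all 13 calls. It left the implied control level and spread as they were and moved the median of all listed genes by 0.00085. It therefore could not test the scaling between genotypes. Over 175 recomputed single-gene values 0 changed direction. For 34 of the 35 listed members every CaKO library lay beyond the fixed control level, so leaving 1 out could not reverse the direction. Of the same values, 15 lost a call and 3 gained one (Ndufs7, Uqcrc1 and Ndufb2). The third, Ndufb2, was gained without replicate 1. No paired analysis was possible because the control libraries' values were not analysed here. For the same reason no control library could be left out. The left-out values use a spread that still includes the removed library. Sdhaf1, with 13.9 to 32.2 normalised counts, is limited by depth.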

Other observations

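Relatives of the members that the annotation does not call protein-coding were also in the table. Ndufb1-ps, annotated as a long non-coding RNA, averaged 416 ± 51.1 normalised counts in CaKO (SD, n = 4), with a log2 ratio of 0.37 by the authors' deposited table (adjusted p = 0.266). The processed pseudogene Ndufab1-ps averaged 184 ± 13.0 (SD, n = 4), with a log2 ratio of 0.43 by the authors' deposited table (adjusted p = 0.266). Its parent gene Ndufab1, which encodes the mitochondrial acyl carrier protein, had no row. The pseudogene Ndufb4c averaged 26.3 ± 3.87 (SD, n = 4) and was left out of the adjustment, and its relative Ndufb4 had no row.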
